A study of Mus musculus with 20 samples.

Results

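The genes described here build, fill and gate cilia: subunits of the intraflagellar transport (IFT) trains and their kinesin motors, the BBSome and its assembly factors, proteins of the transition zone at the base of the cilium, the small GTPase gene Arl3 and Lca5. They were taken from the array's annotation by symbol, as all genes named Ift, Bbs, Nphp or Tctn with a digit and 17 further named genes. The rule itself reads no measured value, but it was written with earlier results of these data known. This gave 31 genes of the array, of which 30 had probe sets of their own among the 15800 genes measured. Rpgr, the remaining one, shared all its 18 probe sets with Srpx in the annotation and received no value. Mks1, Ttc21b, Wdr35, Arl6 and Arl13b were not analysed here. All 30 measured genes lay above the limit for dim genes and were among the 11850 genes tested.

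Retinas came from Nrl-/- mice of strain C57Bl/6J aged 1, 2, 4, 6 and 10 months, with 4 mice per age, both retinas of a mouse pooled as a sample and 1 exon array per sample. Nrl is the transcription factor that sends photoreceptor precursors to the rod fate, and a retina without it makes cone-like photoreceptors instead. By its title the series asks how such cones last once an early wave of cell loss has passed, and the comparisons are between ages. Every group carried the deletion, and without wild-type retinas a change with age cannot be told apart from normal ageing.

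A photoreceptor's outer segment is a modified primary cilium, joined to the cell body by a connecting cilium that corresponds to the transition zone of other cilia. IFT trains move along its microtubules, with IFT-B and kinesin-2 serving transport towards the tip and IFT-A transport back to the base, while the BBSome links membrane proteins to the trains. Transition zone proteins form a gate that keeps the outer segment distinct from the inner segment, and defects in many of these genes cause retinal degeneration in people. Nearly all cells of the retina can carry a primary cilium, so none of these genes marks a single cell type.

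Values are log2 intensities per gene, differences are later minus earlier age with the standard error (SE) of limma's fit over all 20 arrays, and adjusted p-values are limma's with Benjamini-Hochberg adjustment over all 11850 genes at a threshold of 0.05. The retina was measured as a whole, so fewer cells of a type and less RNA per cell cannot be told apart. The 20 arrays correlated with the rest at 0.974 to 0.988 on average. The lowest was replicate 4 of 4 months. The Y-linked genes averaged 4.01 to 4.28 in the 2 month arrays and 4.12 and 4.43 in replicates 2 and 3 of 10 months, against 7.33 to 8.27 in the other 14 arrays. The labels give no sex. Cone markers were high in every array, with a list mean of 11.48 or more. Of 10 markers of motile cilia 8 were measured, with a mean between 5.64 and 6.05, and 5 lay above the limit for dim genes (5.61). A batch is named neither in the labels nor in the file, so handling and age cannot be told apart.

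Promoters are shown for 5 of the genes because the RFX transcription factors, which bind an inverted repeat called the X-box, are known to drive ciliary genes. A part of these factors in the changes with age was not tested. The windows run from 250 bases before to 50 bases after the start of transcription and are RefSeq sequences of GRCm38.p6, printed 5′ to 3′ on the gene's strand. Capitals mark each match to GTTNCC or its reverse complement, one arm of the X-box. Bbs7 (chr3:36613340-36613639, minus strand) and Ahi1 (chr10:20952297-20952596, plus strand) hold 2 such arms facing each other with a gap of 2 bases. Lca5 (chr9:83441078-83441377, minus strand) and Rpgrip1l (chr8:91313173-91313472, minus strand) are among the genes that fell, and Kif17 (chr4:138262001-138262300, plus strand) is the member that rose. All 5 windows shown hold a match, so they do not stand for all genes that fell. The windows of Bbs2, Bbs9, Bbs12, Ttc8 and Wdr19, which also fell, hold none.
Bbs7: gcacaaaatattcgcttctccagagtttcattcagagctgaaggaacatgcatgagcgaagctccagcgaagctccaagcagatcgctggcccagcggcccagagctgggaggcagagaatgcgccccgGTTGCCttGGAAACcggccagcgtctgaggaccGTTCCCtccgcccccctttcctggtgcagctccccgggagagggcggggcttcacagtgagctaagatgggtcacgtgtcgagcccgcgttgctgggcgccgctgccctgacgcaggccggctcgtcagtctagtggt
Ahi1: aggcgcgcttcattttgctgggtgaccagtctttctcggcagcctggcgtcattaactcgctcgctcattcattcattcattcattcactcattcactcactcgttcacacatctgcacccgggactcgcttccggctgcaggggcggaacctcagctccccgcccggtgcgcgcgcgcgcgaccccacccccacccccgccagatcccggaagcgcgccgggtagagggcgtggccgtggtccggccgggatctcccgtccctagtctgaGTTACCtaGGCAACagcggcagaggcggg
Lca5: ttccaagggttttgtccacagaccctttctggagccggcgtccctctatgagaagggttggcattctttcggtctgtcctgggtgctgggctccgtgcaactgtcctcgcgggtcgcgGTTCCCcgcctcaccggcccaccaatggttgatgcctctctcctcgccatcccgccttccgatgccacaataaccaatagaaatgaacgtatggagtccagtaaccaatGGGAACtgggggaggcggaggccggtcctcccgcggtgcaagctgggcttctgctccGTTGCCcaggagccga
Rpgrip1l: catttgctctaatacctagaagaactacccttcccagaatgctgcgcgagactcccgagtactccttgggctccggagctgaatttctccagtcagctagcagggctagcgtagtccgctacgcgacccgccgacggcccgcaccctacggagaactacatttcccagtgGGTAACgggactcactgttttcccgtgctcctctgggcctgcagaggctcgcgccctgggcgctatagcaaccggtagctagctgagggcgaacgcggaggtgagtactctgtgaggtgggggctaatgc
Kif17: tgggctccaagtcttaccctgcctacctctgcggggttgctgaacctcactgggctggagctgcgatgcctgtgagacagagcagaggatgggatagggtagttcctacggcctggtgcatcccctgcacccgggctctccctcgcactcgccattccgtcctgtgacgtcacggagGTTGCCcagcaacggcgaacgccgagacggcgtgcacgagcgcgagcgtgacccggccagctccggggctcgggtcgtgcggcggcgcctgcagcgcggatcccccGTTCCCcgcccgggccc

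The windows of 28 of the 31 genes were at hand, 33 windows in all since some genes have several starts. Both strands were searched, and matches of the arm could overlap those of the full repeat. GTTNCC was found in 24 of the 33 windows, 72.7%, against 45.3% of all 32851 windows and 45.3% of the windows of protein-coding genes. Windows of a gene can overlap, as those of Lca5 do, so that a site counts more than once. Counted by gene, GTTNCC was in 22 of 28 members, 78.6%, against 48.8% of all genes and 49.1% of protein-coding genes. The facing pair GTTNCCNNGGNAAC was found in 2 windows, as GTTGCCTTGGAAAC starting 121 bases before the start of Bbs7 and as GTTACCTAGGCAAC at base 22 after a start of Ahi1, which is 6.06% against 0.451% of all windows. Only this gap of 2 bases was searched. Facing arms with another gap were not counted, such as those of Tctn3 (140 and 133 bases before the start) and Ift57 (60 and 53 bases before). TAATCC, the sequence bound by the photoreceptor factor CRX, was in none of the 33 windows and in 7.06% of all windows. Of the 21 windows of members that were lower at 10 months than at 1 month 66.7% held GTTNCC, and of the 10 windows of measured members that were not called lower all 10 did. Counted by gene it was in 13 of 18 members called lower and in 9 of 9 not called lower. The remaining 2 windows belong to Rpgr, which has no level, and held none. A match is a description of the letters, not a binding site.

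**Figure D1:**
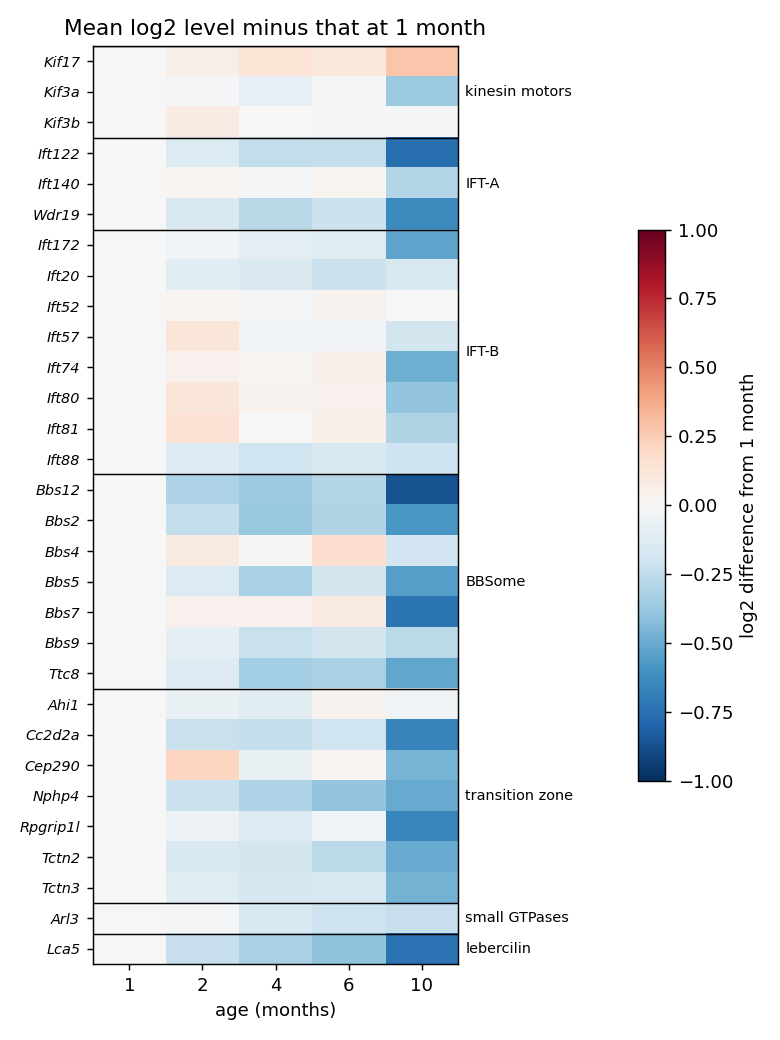
Mean log2 level of each of the 30 measured ciliary genes (rows, grouped by role) at each age (columns, months) minus its mean at 1 month, n = 4 mice per age, with blue below and red above the 1 month level. Most rows are bluest at 10 months, Kif17 is the row that is red at 10 months, and some other rows, such as Cep290 at 2 months and Bbs4 at 6 months, are red at an earlier age.

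Across the 5 ages 21 of the 30 ciliary genes differed by the moderated F test, where 38.4% of all genes tested did. The mean over the 30 genes was 8.87, 8.84, 8.78 and 8.81 in the 1 month arrays, 8.73, 8.79, 8.78 and 8.79 at 2 months, 8.74, 8.70, 8.72 and 8.59 at 4 months, 8.68, 8.69, 8.78 and 8.73 at 6 months and 8.42, 8.44, 8.31 and 8.52 at 10 months. The 4 arrays of 10 months lay below all 16 others. The 9 genes outside the F test's calls were Ahi1, Cep290, Ift20, Ift52, Ift57, Ift88, Kif17, Kif3a and Kif3b. When each gene was read from its brightest probe set alone, 13 of the 30 genes were called, and 20.4% of all genes.

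Between 10 months and 1 month, the widest span of ages, 21 of the 30 genes fell and 1 rose. Among all genes tested 20.7% fell and 20.6% rose. The median difference of the 30 genes was -0.47, against 0.04 over all genes tested, and 29 of the 30 differences were below 0, against 44.6% over all genes. In 20 of the 30 genes all 4 arrays of 10 months lay below all 4 of 1 month, which held for 18% of all genes. By role, 3 of 3 IFT-A genes, 4 of 8 IFT-B genes, 6 of 7 genes of the BBSome group, 5 of 7 transition zone genes, Arl3, Lca5 and 1 of 3 kinesin genes fell. Without the 2 arrays of 10 months that were low in Y-linked genes, an alternative chosen after seeing the data, 18 of the 30 fell and none rose (limma), where 17.6% of all genes fell, and the median difference of the 30 genes was -0.30. With a covariate for the Y-linked level, also chosen after seeing the data, 16 fell, where 15.2% of all genes did, and the median was -0.25. With the brightest probe set 17 of the 30 were called, when 27.8% of all genes were.

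**Figure D2:**
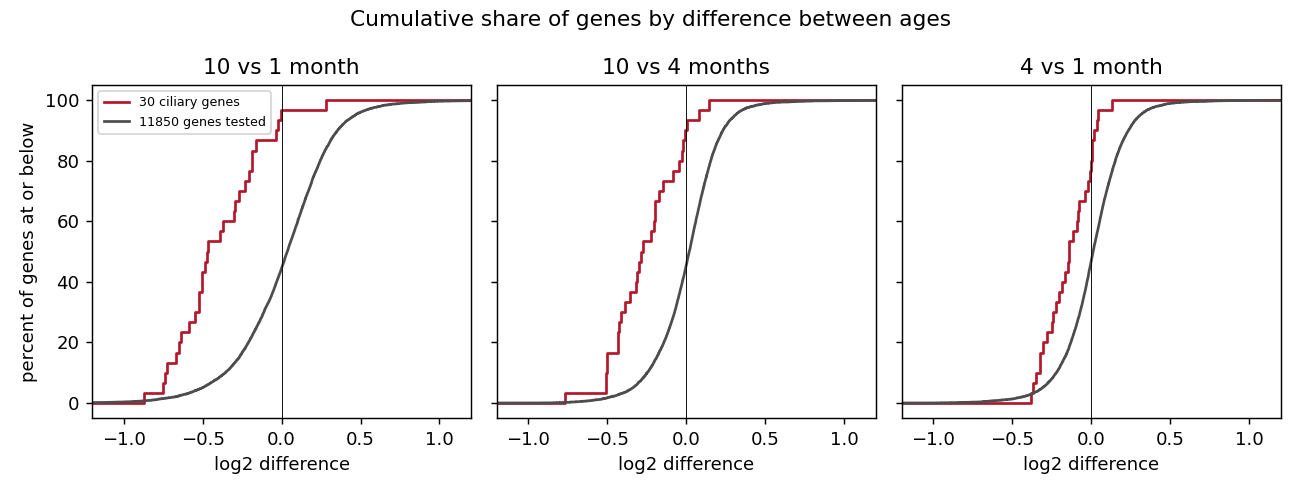
Cumulative percent of genes (vertical axis) at or below a log2 difference (horizontal axis, later minus earlier age) for the 30 ciliary genes (red) and all 11850 genes tested (grey), in 3 comparisons. The red line lies mostly left of the grey one, with medians of -0.47 against 0.04 for 10 vs 1 month, -0.28 against 0.02 for 10 vs 4 months and -0.14 against 0.01 for 4 vs 1 month.

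Ift122, which encodes an IFT-A subunit, measured 8.64, 8.59, 8.51 and 8.54 at 1 month, 8.44, 8.42, 8.51 and 8.39 at 2 months, 8.36, 8.37, 8.24 and 8.34 at 4 months, 8.35, 8.31, 8.37 and 8.31 at 6 months and 7.76, 7.85, 7.84 and 7.81 at 10 months. The 10 month arrays were lowest and separate from those of every other age, and the 4 and 6 month arrays lay below all of 1 month. The difference of 10 months from 1 month was -0.75 ± 0.05 (SE, adjusted p = 1.7e-09), or 59.3% of the 1 month level on the linear scale. All 30 of its probe sets had a lower mean at 10 months than at 1 month. Wdr19, which encodes the IFT-A subunit IFT144, measured 7.91, 8.09, 7.86 and 8.16 at 10 months, against 8.69, 8.65, 8.59 and 8.63 at 1 month. Its groups did not overlap, and the difference was -0.64 ± 0.07 (SE, adjusted p = 1.28e-06), with 37 of 37 probe sets lower. Ift140, the third IFT-A gene among the 30, fell less, to 8.18 ± 0.08 (SD, n = 4) at 10 months, against 8.47 ± 0.08 at 1 month (-0.29 ± 0.06, SE, adjusted p = 0.000954).

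The IFT-B genes were split. Ift172, which encodes a large IFT-B subunit, fell by 0.52 on the log2 scale, to 7.61 ± 0.11 at 10 months against 8.14 ± 0.06 at 1 month (SD, n = 4; adjusted p = 1.01e-06), with 48 of 50 probe sets lower. Ift74 and Ift81, whose products form the tubulin-binding module of the train, differed by -0.49 ± 0.14 and -0.30 ± 0.08 (SE, adjusted p = 0.0101 and 0.00373). Ift80 differed by -0.39 ± 0.09 (SE, adjusted p = 0.00134). The calls of Ift74 and Ift81 were lost without the Y-low arrays of 10 months. The other IFT-B genes did not pass at 10 months: Ift88, whose product is needed to assemble the cilium, measured 7.63, 7.57, 7.37 and 7.78 at 10 months, against 7.85, 7.90, 7.70 and 7.73 at 1 month. These groups overlapped (-0.21 ± 0.09, SE, adjusted p = 0.0734). Ift52 had a difference of -0.01 ± 0.08 (SE, adjusted p = 0.957). Ift57 and Ift20, whose product also works at the Golgi, differed by -0.19 ± 0.08 and -0.16 ± 0.07 (SE). 4 further genes are named Ift in RefSeq but carry older symbols on the array and stand outside the 31. Ift43 among them belongs to IFT-A, not IFT-B. Ift22, on the array Rabl5, and Ift43 fell (-0.66 ± 0.07 and -0.39 ± 0.07, SE, adjusted p = 1.77e-06 and 0.000259), and Ift27 and Ift46 did not pass (-0.18 ± 0.10 and -0.11 ± 0.06).

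The kinesin-2 genes moved in different ways. Kif3a, a motor subunit of the heterotrimeric kinesin-2, measured 8.89, 8.50, 8.29 and 8.52 at 10 months, against 8.89, 8.91, 8.88 and 8.99 at 1 month. Replicate 1 of 10 months lay within the 1 month values and the other 3 below them. The difference was -0.37 ± 0.11 (SE, adjusted p = 0.0141), and it no longer passed when replicate 3 of 10 months (adjusted p = 0.0601) or both Y-low arrays were dropped. All 16 probe sets of Kif3a were lower, but its brightest gave only -0.01. Its partner Kif3b measured 9.32 ± 0.12 at 10 months and 9.34 ± 0.06 at 1 month (SD, n = 4), a difference of -0.02 ± 0.05 (SE, adjusted p = 0.784). Kif17, the homodimeric kinesin-2, was the only one of the 30 called higher at 10 months than at 1 month, with 7.15, 7.22, 7.35 and 6.92 at 10 months, against 6.68, 6.99, 6.99 and 6.85 at 1 month. The groups overlapped through replicate 4 of 10 months (0.28 ± 0.10, SE, adjusted p = 0.0355), and 15 of 16 probe sets were higher. It no longer passed when replicate 1 or 4 of 1 month or any of replicates 1 to 3 of 10 months was dropped (adjusted p up to 0.128) and without the 2 Y-low arrays, and its brightest probe set gave -0.06.

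**Figure D3:**
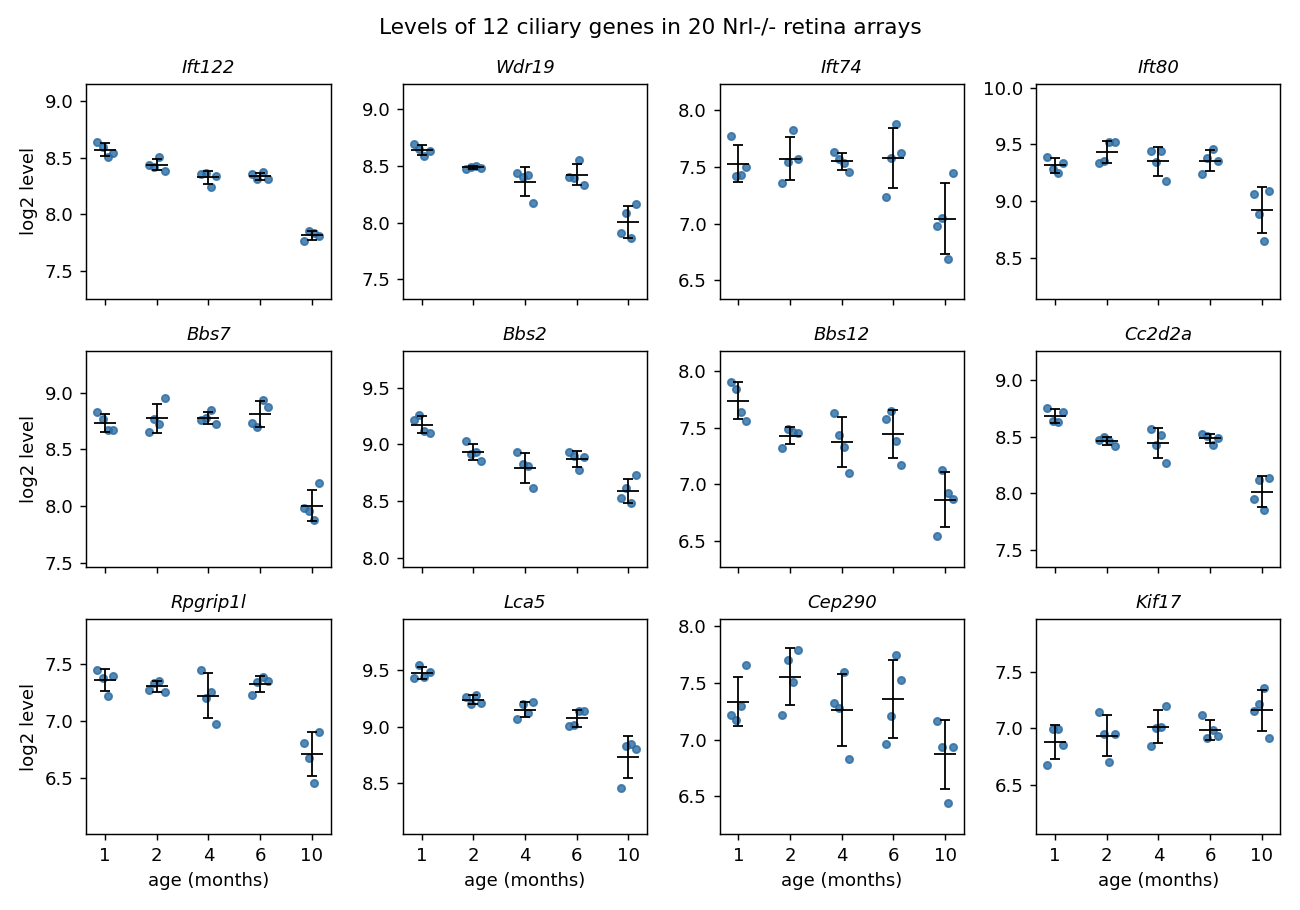
Log2 level (vertical axis, a window of equal height in each panel) of 12 ciliary genes at 5 ages (horizontal axis, months). Points are arrays, the horizontal mark is the mean and the bars are 1 SD, n = 4 per age. Ift122, Bbs7, Cc2d2a and Lca5 are separate at 10 months from all other ages, while the 10 month points of Cep290 and Kif17 overlap those of 4 and 6 months.

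The BBSome is an octamer that carries membrane proteins with the IFT trains. Of its subunit genes measured here Bbs2, Bbs5, Bbs7, Bbs9 and Ttc8 (BBS8) fell at 10 months and Bbs4 did not pass. Bbs1 and Bbip1 had no value here. Bbs7 measured 8.83, 8.77, 8.67 and 8.67 at 1 month, 8.65, 8.77, 8.72 and 8.95 at 2 months, 8.76, 8.77, 8.85 and 8.72 at 4 months, 8.73, 8.70, 8.93 and 8.88 at 6 months and 7.98, 7.96, 7.88 and 8.20 at 10 months. The arrays of the first 4 ages overlapped each other, and those of 10 months lay below all of them. The difference of 10 from 1 month was -0.73 ± 0.08 (SE, adjusted p = 5.61e-07), 60.3% of the 1 month level, and 21 of 22 probe sets were lower. Bbs12, whose product resembles a chaperonin and helps assemble the BBSome, measured 6.54, 7.13, 6.92 and 6.87 at 10 months, against 7.91, 7.84, 7.63 and 7.56 at 1 month. Its groups did not overlap, and at -0.87 ± 0.13 (SE, adjusted p = 2.39e-05) it had the lowest difference of the 30 genes, on 2 probe sets. Bbs2, Bbs5 and Ttc8 differed by -0.58 ± 0.07, -0.55 ± 0.10 and -0.52 ± 0.06 (SE, adjusted p at most 0.000257), and Bbs9 by -0.27 ± 0.06. Bbs4 measured 9.31, 9.40, 9.21 and 9.44 at 10 months, against 9.64, 9.55, 9.43 and 9.50 at 1 month, and replicate 4 of 10 months reached the 1 month values (-0.19 ± 0.08, SE, adjusted p = 0.0588).

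Among the transition zone genes, Cc2d2a, Tctn2 and Tctn3, whose products belong to the membrane-linked complex of Meckel and Joubert syndrome proteins, fell at 10 months, as did Rpgrip1l and Nphp4. Cc2d2a measured 7.95, 8.12, 7.86 and 8.13 at 10 months, against 8.75, 8.63, 8.63 and 8.72 at 1 month. The groups did not overlap (-0.67 ± 0.07, SE, adjusted p = 3.99e-07), and 37 of 39 probe sets were lower, but its brightest probe set gave 0.01. Rpgrip1l, which encodes a scaffold at the ciliary base, measured 6.81, 6.68, 6.45 and 6.90 at 10 months, against 7.45, 7.38, 7.22 and 7.40 at 1 month, again without overlap (-0.65 ± 0.09, SE, adjusted p = 2.16e-05). Nphp4, a partner of Rpgrip1l in the transition zone, differed by -0.51 ± 0.09 (SE, adjusted p = 0.000155), and Tctn2 and Tctn3 by -0.51 ± 0.06 and -0.47 ± 0.05. Cep290, a gene of the Y-shaped links between microtubules and membrane and a cause of Leber congenital amaurosis in people, measured 7.16, 6.94, 6.45 and 6.93 at 10 months, against 7.22, 7.18, 7.30 and 7.65 at 1 month. All 4 arrays of 10 months lay below those of 1 month, narrowly, and overlapped those of 4 and 6 months. The spread between mice was wide at each age (SD from 0.22 to 0.34), and the difference of -0.47 ± 0.19 (SE, adjusted p = 0.0536) did not pass, with 17 of 18 probe sets lower. Ahi1, another Joubert syndrome gene, had -0.04 ± 0.06 (SE, adjusted p = 0.64), with 10 of 18 probe sets lower.

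Lca5 encodes lebercilin, a protein of the connecting cilium that binds IFT proteins and is mutated in Leber congenital amaurosis in people. It measured 9.43, 9.54, 9.44 and 9.48 at 1 month, 9.27, 9.20, 9.28 and 9.21 at 2 months, 9.07, 9.20, 9.12 and 9.21 at 4 months, 9.005, 9.02, 9.13 and 9.14 at 6 months and 8.46, 8.83, 8.85 and 8.80 at 10 months. All later arrays lay below those of 1 month, and all arrays of 10 months lay below those of every earlier age. The difference of 10 from 1 month was -0.74 ± 0.07 (SE, adjusted p = 2.37e-07), 60% of the 1 month level. Of the 13 probe sets of Lca5 11 were lower, and their differences ran from -1.06 to 0.68. Arl3, the GTPase that releases lipid-modified proteins such as phototransduction subunits from their carriers in the cilium, measured 11.39, 11.45, 11.53 and 11.59 at 10 months, against 11.72, 11.75, 11.68 and 11.73 at 1 month. Its groups did not overlap, with a smaller difference of -0.23 ± 0.05 (SE, adjusted p = 0.0017) and 6 of 6 probe sets lower.

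The early step, 4 months against 1 month, called 11 of the 30 genes, all lower (limma, with 0 higher at an unadjusted p under 0.05), where 8.24% of all genes fell and 6.93% rose. The median difference was -0.14, against 0.01 over all genes, and 24 differences were below 0, against 46.6% over all genes. In 11 genes the arrays of 4 months all lay below those of 1 month, as in 9.52% of all genes. The called genes were Bbs2, Bbs5, Bbs9, Ttc8, Cc2d2a, Nphp4, Tctn2, Tctn3, Ift122, Wdr19 and Lca5, so no kinesin and no IFT-B gene passed. Bbs2 measured 8.93, 8.83, 8.81 and 8.61 at 4 months, against 9.22, 9.26, 9.12 and 9.10 at 1 month. The groups did not overlap (-0.38 ± 0.07, SE, adjusted p = 0.00105), 76.9% of the 1 month level. Ttc8 measured 9.81, 9.80, 9.86 and 9.64 at 4 months, against 10.20, 10.10, 10.09 and 10.11 at 1 month, also without overlap (-0.35 ± 0.06, SE, adjusted p = 0.00115). Bbs5 measured 8.35, 8.17, 8.24 and 7.85 at 4 months, against 8.61, 8.56, 8.37 and 8.38 at 1 month. Replicate 4 of 4 months was lowest, and the highest 4 month array lay just below the lowest of 1 month (-0.32 ± 0.10, SE, adjusted p = 0.0361). Nphp4 measured 8.57, 8.57, 8.53 and 8.74 at 4 months, against 8.94, 8.93, 8.92 and 8.84 at 1 month, without overlap (-0.30 ± 0.09, SE, adjusted p = 0.0249). Lca5 differed by -0.32 ± 0.07 (SE, adjusted p = 0.00435). The count was 5 when replicate 1 of 1 month was dropped, 7 when replicate 2 of either age was dropped. The calls of Bbs5, Bbs9, Cc2d2a, Nphp4, Tctn2 and Tctn3 each missed the threshold when some single array was dropped (adjusted p up to 0.11), while those of Bbs2, Ttc8, Ift122, Wdr19 and Lca5 passed in all 20 such fits. With the 8 arrays of both ages alone, 7 genes were called, and likewise 7 with the brightest probe set, when 7.09% of all genes were.

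At 2 months 3 of the 30 genes were lower than at 1 month, Bbs2, Lca5 and Cc2d2a, and none was higher (limma, and 0 at an unadjusted p under 0.05), where 5.27% of all genes fell and 3.31% rose. Bbs2 measured 9.03, 8.92, 8.94 and 8.86 at 2 months, against 9.22, 9.26, 9.12 and 9.10 at 1 month (-0.24 ± 0.07, SE, adjusted p = 0.0352). Cc2d2a measured 8.47, 8.49, 8.46 and 8.41 at 2 months, against 8.75, 8.63, 8.63 and 8.72 at 1 month (-0.22 ± 0.07, SE, adjusted p = 0.0471). Lca5 differed by -0.23 ± 0.07 (SE, adjusted p = 0.0465). In each of the 3 genes the 2 groups of arrays did not overlap, which held for 10 of the 30 genes with 2 months lower and for 9.69% of all genes. Below 0 lay 19 of the 30 differences, against 46% over all genes. All 3 calls lay near the threshold: 0 or 1 remained without any one array of 1 month or 2 months, without replicate 2 or 3 of 4 months or without any one array of 6 months (adjusted p up to 0.137). With a covariate for the Y-linked level the count was 0 and the median difference of the 30 genes 0.11, against -0.06 without it, and only 0.38% of all genes were called lower in that fit. That level separated all arrays of these 2 ages, and here age cannot be told apart from sex.

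At 6 months 11 genes were lower than at 1 month and none higher (limma, with 1 higher at an unadjusted p under 0.05, Bbs4), where 8.46% of all genes fell and 7.89% rose. Below 0 lay 19 of the 30 differences, against 47.3% over all genes, and 13 genes had all arrays of 6 months below those of 1 month, as had 11.1% of all genes. The called genes were Lca5, Nphp4, Ttc8, Bbs2, Bbs9, Tctn2, Tctn3, Ift122, Wdr19, Ift20 and Arl3. Lca5, Nphp4 and Ttc8 had the lowest differences, at -0.40 ± 0.07, -0.39 ± 0.09 and -0.32 ± 0.06 (SE, adjusted p = 0.00077, 0.0048 and 0.002). Nphp4 measured 8.71, 8.52, 8.34 and 8.48 and Ttc8 9.78, 9.74, 9.89 and 9.81 at 6 months, all below the arrays of 1 month. The count was 7 when replicate 1 or 2 of 1 month, or 4 of 6 months, was dropped, and 4 with the brightest probe set, when 8.05% of all genes were called. The calls of Bbs9, Ift20, Tctn3 and Wdr19 each missed the threshold when some single array was dropped (adjusted p up to 0.118).

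In the late step, 10 months against 4 months, 15 of the 30 genes fell and none rose (limma, with 0 higher at an unadjusted p under 0.05), where 11.7% of all genes fell and 10.1% rose. The median difference was -0.28, against 0.02 over all genes, and in 13 genes the 2 groups of arrays did not overlap with 10 months lower, which held for 10.3% of all genes. Below 0 lay 27 of the 30 differences, against 45.6% over all genes. Bbs7 had the lowest difference, -0.77 ± 0.08 (SE, adjusted p = 1.59e-06), 58.6% of the 4 month level, with all 4 arrays of 10 months below those of 4 months. Rpgrip1l measured 6.81, 6.68, 6.45 and 6.90 at 10 months, against 7.45, 7.21, 7.26 and 6.97 at 4 months, without overlap (-0.51 ± 0.09, SE, adjusted p = 0.000767). Ift122 followed with -0.51 ± 0.05 (SE, adjusted p = 6.87e-07). Ift74 measured 6.98, 7.05, 6.69 and 7.45 at 10 months, against 7.63, 7.57, 7.54 and 7.45 at 4 months. Replicate 4 of 10 months lay just below the lowest 4 month array, and the call (-0.51 ± 0.14, SE, adjusted p = 0.0159) missed the threshold when replicate 3 of 10 months (adjusted p = 0.0588) or both Y-low arrays were dropped. Bbs12 measured 6.54, 7.13, 6.92 and 6.87 at 10 months, against 7.63, 7.43, 7.33 and 7.10 at 4 months, and replicate 2 of 10 months lay above the lowest 4 month array (-0.51 ± 0.13, SE, adjusted p = 0.00779). The other calls were Ift172, Ift80, Cc2d2a, Lca5, Wdr19, Tctn2, Tctn3, Ift81, Ift140 and Bbs2, with differences from -0.43 ± 0.06 to -0.21 ± 0.07 (SE). That of Bbs2 was lost without any one of replicates 1 to 3 of 4 months or of 10 months (adjusted p up to 0.122). Without the 2 Y-low arrays of 10 months 13 genes fell, as did 9.47% of all genes, and with the brightest probe set 9 were called, when 9.07% of all genes were.

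**Figure D4:**
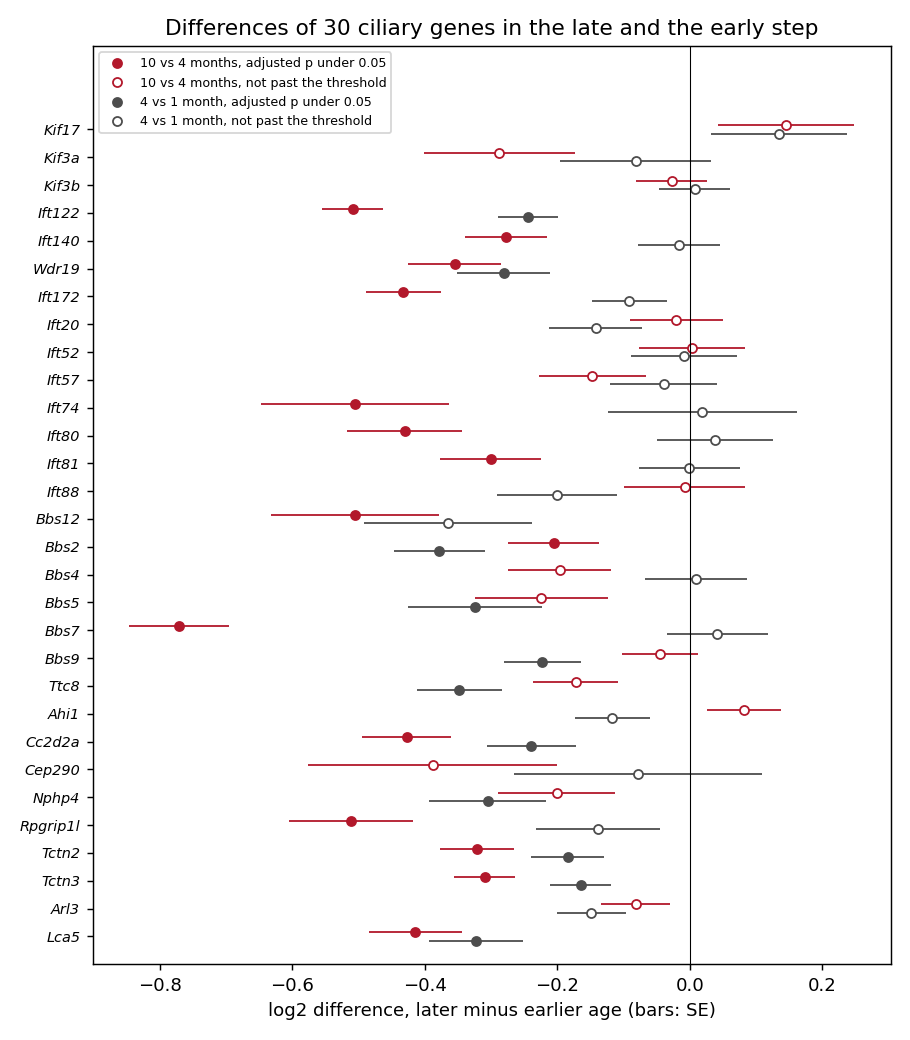
Log2 difference (horizontal axis, bars are 1 SE of limma's fit) of the 30 ciliary genes (rows) for 10 vs 4 months (red) and 4 vs 1 month (grey), with filled points where the adjusted p was under 0.05. Of the filled points all lie left of 0, 15 of them red and 11 grey.

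Set side by side, the early and the late step divided the 30 genes in 4 ways. The steps share the 4 month arrays, and the difference between them was not tested. Bbs2, Cc2d2a, Ift122, Lca5, Tctn2, Tctn3 and Wdr19, 7 genes, fell in both steps, as did 2.12% of all genes tested. Bbs7, Bbs12, Rpgrip1l, Ift140, Ift172, Ift74, Ift80 and Ift81, 8 genes, fell in the late step and did not pass in the early one, as did 8.98% of all genes. Bbs7, for example, had 0.04 ± 0.08 and Ift80 0.04 ± 0.09 (SE) in the early step. Bbs5, Bbs9, Nphp4 and Ttc8, 4 genes, fell in the early step and did not pass in the late one, where they had -0.22 ± 0.10, -0.05 ± 0.06, -0.20 ± 0.09 and -0.17 ± 0.06 (SE). The other 11 passed in neither. For the classes of 4 and of 11 genes no share over all genes was computed. In the early step 8.24% of all genes fell, whatever their late step.

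Against 6 months, 19 of the 30 genes were lower at 10 months and none was higher (limma, with 0 higher at an unadjusted p under 0.05), where 11.7% of all genes fell and 8.62% rose. Below 0 lay 28 of the 30 differences, against 44.6% over all genes, and in 17 genes the groups did not overlap with 10 months lower, as in 12.2% of all genes. The median difference was -0.33, against 0.03 over all genes. The comparison shares the 10 month arrays with those above. Bbs7, Rpgrip1l and Bbs12 had the lowest differences (-0.81 ± 0.08, -0.62 ± 0.09 and -0.58 ± 0.13, SE, adjusted p = 1.18e-06, 0.000131 and 0.00296). Bbs7 measured 7.98, 7.96, 7.88 and 8.20 at 10 months, against 8.73, 8.70, 8.93 and 8.88 at 6 months. Rpgrip1l measured 6.81, 6.68, 6.45 and 6.90 at 10 months, against 7.23, 7.35, 7.39 and 7.35 at 6 months. Bbs12 measured 6.54, 7.13, 6.92 and 6.87 at 10 months, against 7.58, 7.65, 7.38 and 7.17 at 6 months. None of the 3 pairs of groups overlapped. Bbs4 passed in this comparison (-0.35 ± 0.08, SE, adjusted p = 0.00301), with 9.31, 9.40, 9.21 and 9.44 at 10 months, against 9.62, 9.60, 9.86 and 9.69 at 6 months. Without the 2 Y-low arrays 13 genes fell, as did 8.75% of all genes, and with the brightest probe set 8 were called, when 8.34% of all genes were. The calls of Bbs5, Kif3a and Ttc8 each missed the threshold when some single array was dropped (adjusted p up to 0.145).

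Other genes of the same machinery were followed in lists outside the 31. Of 12 tested further IFT, motor and dynein-2 genes 9 fell and 1 rose at 10 months against 1 month. Dync2li1, a subunit of the dynein that drives trains back to the base, fell by 0.75 ± 0.09 on the log2 scale (SE, adjusted p = 2.65e-06), Ift22 fell as given above, and Wdr60, another dynein-2 subunit, had -0.54 ± 0.09. Tulp3, which brings receptors into cilia together with IFT-A, rose (0.19 ± 0.05, adjusted p = 0.0101). Of 8 tested further Bardet-Biedl genes 4 fell and 1 rose. Mkks, which works with Bbs12 in assembling the BBSome, had -0.86 ± 0.08 (SE, adjusted p = 2.63e-07), Sdccag8 had -0.41 ± 0.06, and the ubiquitin ligase gene Trim32 rose (0.44 ± 0.06). Of 16 tested further transition zone and ciliopathy genes 9 fell and none rose, led by Tmem107 (-0.76 ± 0.09), Tmem67 (-0.60 ± 0.10) and the distal appendage gene Cep164 (-0.59 ± 0.05). Of 12 photoreceptor cilium genes 9 fell and 1 rose, led by Rpgrip1 (-0.94 ± 0.08), Fam161a (-0.67 ± 0.07) and Mak (-0.59 ± 0.08), a kinase of the axoneme, while Arl2bp rose (0.23 ± 0.06). Of 5 tested RFX and other ciliogenesis factors 3 fell and 1 rose: Rfx5 (-0.36 ± 0.05), Rfx1 (-0.33 ± 0.07) and Rfx3 (-0.29 ± 0.08) were lower and Foxj1 was higher (0.24 ± 0.09). Tulp3, Arl2bp and Foxj1 were named after their values were seen, as the members that rose. The shares fallen in these lists stand beside 20.7% of all genes.

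In the late step the same lists had 6 of 12, 2 of 8, 4 of 16, 7 of 12 and 2 of 5 tested genes lower, and 1, 1, 0, 1 and 0 higher, where 11.7% of all genes fell and 10.1% rose. Tmem107 had -0.72 ± 0.09 (SE) in the late step, and -0.04 ± 0.09 in the early step. Rpgrip1 had -0.12 ± 0.08 in the late and -0.82 ± 0.08 in the early step. Among the photoreceptor cilium genes, Rp1l1, which encodes an axoneme protein, had -0.56 ± 0.08 in the late step (SE, adjusted p = 0.000135), Pde6d, a carrier of lipid-modified proteins that Arl3 empties, -0.49 ± 0.06 (adjusted p = 1.97e-05), and Tulp1 -0.37 ± 0.05 (adjusted p = 5.91e-05). Dync2li1 had -0.51 ± 0.09, Mkks -0.63 ± 0.08 and Rfx3 -0.43 ± 0.08 (SE) in the same step, and all 3 passed.

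The genes moved together over the arrays to different degrees. The level of each gene was correlated over the 20 arrays with the mean of the other standardised members. Pearson's r ranged up to 0.97 for Wdr19, 0.94 for Rpgrip1l and 0.93 for Bbs5, and down to 0.17 for Ahi1 and -0.78 for Kif17. With age means removed r was 0.83 for Wdr19, 0.87 for Rpgrip1l and 0.91 for Ift52, which was called in no comparison. It was 0.08 for Ift122, -0.28 for Tctn3, -0.49 for Nphp4 and -0.78 for Kif17. Arrays of the same age thus differed in ways that many of the genes shared. The genes outside the group whose course was most like the mean of all 30 were Mak, Zw10, Impg1, Fam98a and Impg2, with r between 0.960 and 0.967 over the 20 arrays. Mak is also in the list of photoreceptor cilium genes, and Impg1 and Impg2 encode proteoglycans of the matrix around photoreceptors. The arrays share ages and normalization, so these are descriptions.

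Markers of retinal cell types moved over the same ages. Of the 10 cone markers 7 fell and none rose at 10 months against 1 month, and 6 fell and none rose against 4 months, where 20.7% and 11.7% of all genes fell. Their list mean ranged from 11.48 to 11.57 at 10 months, from 11.76 to 11.85 at 4 months and from 11.83 to 11.96 at 1 month. Of the 8 Muller glia markers all rose at 10 months against 1 month, where 20.6% of all genes rose, and their mean ranged from 10.81 to 11.01 at 10 months, against 10.32 to 10.42 at 1 month. Of the 8 microglia markers 5 rose and none fell at 2 months against 1 month, where 3.31% of all genes rose, and in that comparison 3 ciliary genes fell. Against 1 month none of the 8 was called at 10 months, and against 4 months 4 fell. Their mean ranged from 7.15 to 7.26 at 1 month, from 7.47 to 7.65 at 2 months, from 7.36 to 7.45 at 4 months and from 7.03 to 7.18 at 10 months. The part of these changes in the fall of the ciliary genes was not tested. The pigment epithelium markers spread widely at 10 months, from 6.53 to 8.45, against 6.89 to 7.20 at 1 month. The 10 month array with 6.53, replicate 2, had a mean of 8.44 over the 30 ciliary genes, below all 16 arrays of the other ages. Replicates 1 and 4 of 10 months, high in Y-linked genes like the arrays of 1, 4 and 6 months, had 8.42 and 8.52, also below all 16. The median difference of the 30 genes between 10 months and 1 month was -0.47 in the main fit. It was -0.30 without the Y-low arrays of 10 months and -0.25 with the Y-linked covariate. The part of pigment epithelium and of sex in the ciliary levels was not tested. The lens markers ranged from 5.49 to 5.76 at 10 months, against 6.50 to 7.21 at 1 month, and 1 array of 6 months reached 6.95. They touch the comparisons with 1 month, and their part was not tested.

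**Figure D5:**
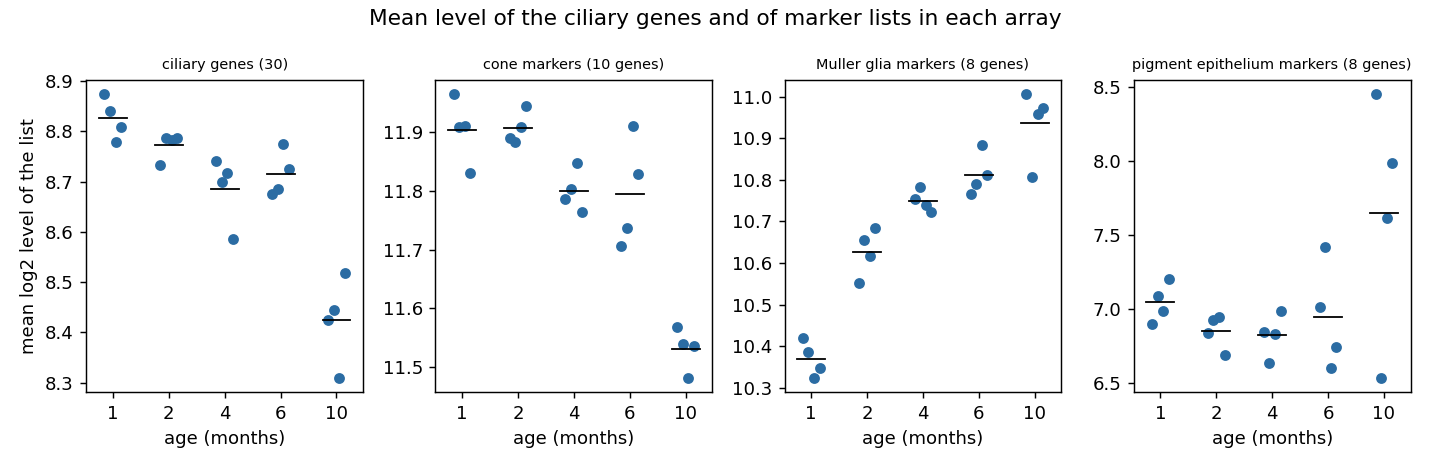
Mean log2 level over the genes of a list (vertical axis, a scale of its own in each panel) in each of 20 arrays by age (horizontal axis, months), for the 30 ciliary genes and 3 marker lists. Points are arrays and lines are means of 4. The ciliary and the cone means are lowest in the 10 month arrays, at 8.31 to 8.52 and 11.48 to 11.57, the Muller glia mean is on average highest there, and the pigment epithelium mean spreads from 6.53 to 8.45.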

How the data were processed

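Total RNA depleted of ribosomal RNA from whole retinas was hybridised to 1-colour exon arrays, per the labels. The authors deposited log2 intensities per probe set, made by RMA, per the submitters' processing notes, while the RMA software, probe set selection and genome build are, in the sources used here, not given. No depth applies, and the number of arrays limits the precision.

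Of 194293 probe sets 179496 had 1 gene symbol in the platform annotation, 1328 had several and 13469 none. Those with 1 symbol were summarised by median polish into 15800 genes, after 2020 symbols were updated to RefSeq names. The dimmest 25% of genes by their mean over all arrays were left out, and 11850 genes were tested with limma 3.58.1 (lmFit and eBayes, R 4.3.3) over the 20 arrays with age as a factor and 15 residual degrees of freedom. Figures were drawn with matplotlib 3.10.9. Exons of a gene are averaged, so a change of isoform can appear as a change of level.

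The members and the lists were chosen with earlier results of these data known. Values in every array are given for the called members with the largest differences (up to 5 in each direction in 4 vs 1, 10 vs 1 and 10 vs 4 months, up to 3 in the other comparisons) and for Cep290, Lca5, Ift88, Kif3a, Arl3 and Bbs4. Alternatives were the summary per gene, the filter, the normalization, array weights, the spread model, the replicate number as a block, the arrays in the fit and each array left out. Nothing in the labels says how far the mice of an age differ in litter or handling. Deviations of samples with the same replicate number went both ways: correlations in 40 pairs of arrays ran from -0.57 to 0.56 and 10 were over 0.1. Pairs of unlike number were not set beside them, so whether the numbers link samples was not tested. Tested on simulated data for 10 vs 4 months with 11850 genes, the fit called 47% of genes changed by 0.3 and 84% of those changed by 0.6 (log2), with 9 false calls among 11650 unchanged genes. The simulated noise was normal and independent between genes. In the real arrays genes can deviate together, so these rates need not hold for them.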

Additional observations from a re-analysis of the deposited data

Results flagged for a closer look

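In 4 of 150 groups of 4 arrays (30 genes at 5 ages) 1 array stood apart from the other 3 by more than Dixon's limit at a level that chance passes in about 1 of 20 groups. Lca5 measured 8.46 in replicate 1 of 10 months, against 8.80 to 8.85 in the other 3 arrays of that age, all of them below every earlier array. Wdr19 measured 8.17 in replicate 4 of 4 months, against 8.40 to 8.44 in the others, and Ift20 measured 9.80 in the same array, against 9.59 to 9.62. That array also had the lowest mean correlation with the other arrays, 0.974. Ttc8 measured 10.2 in replicate 1 of 1 month, against 10.09 to 10.11 in the others. The cause of these values was not tested.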

How the results depend on the processing

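Reading each gene from its brightest probe set alone called 13 of the 30 ciliary genes for any age (21 as reported) and 17 for 10 vs 1 month (22). Of all genes 20.4% and 27.8% were called. The counts were 0 for 2 vs 1 month (3), 7 for 4 vs 1 month (11), 4 for 6 vs 1 month (11), 9 for 10 vs 4 months (15) and 8 for 10 vs 6 months (19). Of all genes 2.9%, 7.09%, 8.05%, 9.07% and 8.34% were called there. The brightest probe set turned the direction of Cc2d2a at 10 months, to 0.012 against 1 month, 0.071 against 4 months and 0.12 against 6 months, and of Kif17, to -0.062 against 1 month. For 2 vs 1 month the count was 0 with the mean of the probe sets, without the filter and with a Y-linked covariate, 1 with median centring and 9 with array weights. For 4 vs 1 month it was 7 with the 8 arrays of both ages alone, and for 10 vs 6 months 12 with the Y-linked covariate, where 8.14% of all genes fell. The cause of these moves was not tested. Counts here and above that stand without a share of all genes show how the calls moved between fits. They do not compare the members with other genes. Over the fits that left out 1 array the counts ran from 20 to 23 for any age, from 0 to 3 for 2 vs 1 month, from 5 to 12 for 4 vs 1 month, from 7 to 12 for 6 vs 1 month, from 20 to 25 for 10 vs 1 month, from 13 to 19 for 10 vs 4 months and from 16 to 20 for 10 vs 6 months. With the replicate number as a block the counts were 21 for any age, 2 for 2 vs 1 month, 11 for 4 vs 1 month, 8 for 6 vs 1 month, 21 for 10 vs 1 month, 15 for 10 vs 4 months and 17 for 10 vs 6 months. The labels do not say that the numbers pair the samples.

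Age cannot be told apart from handling, and there was no wild type. Signal over background limits the dimmest members, of which Ift74 had 6 of 20 probe sets under the limit for dim genes.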
